A study of Mus musculus with 9 samples.

Results

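The genes described here act in blood clotting and in the breakdown of clots and matrix by plasmin. They are the 9 of 55335 genes in the deposited table whose symbols are F10, F7, F3, Plau, Plaur, Plat, Serpinb2, Thbd and Vwf. RNA sequencing was done on BV2, a mouse microglial line made by immortalisation and labelled wild type, and gave 9 libraries, 3 in each of 3 groups. The label of the controls is 0 h. The hypoxia group was kept at 1% oxygen for 24 h, and the hypoxia with ethanolamine group was kept at 1% oxygen for 24 h in medium to which 100 µM ethanolamine, from which cells build phosphatidylethanolamine, was added. A treatment tag on the controls names fat cell differentiation, which goes against their titles and was disregarded. All libraries come from a single cell line grown in culture, and whether they stand for separate cultures is not labelled, so the p-values cover only the spread among these libraries, part of which may be technical.

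Clotting starts when tissue factor, the cell surface protein encoded by F3, binds factor VII (F7), and the pair activates factor X (F10), the enzyme that makes thrombin. Thrombomodulin (Thbd) turns thrombin towards activation of the anticoagulant protein C, and von Willebrand factor (Vwf) tethers platelets and carries factor VIII. Plasmin is made from plasminogen by urokinase (Plau), which is held at the cell surface by its receptor (Plaur), or by tissue plasminogen activator (Plat), and plasminogen activator inhibitor 2 (Serpinb2) blocks both activators. Factors VII and X are best known as liver products, whereas macrophages and microglia are known to make urokinase, its receptor and tissue factor.

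Levels are FPKM, fragments scaled to gene length and library total. Low values, multiplied by gene length, peaked at a recurring value in each library. Taking this peak as 1 fragment, which was assumed, put the depth at an estimated 12100000 to 15800000 fragments per library. In each library 11556 to 11924 genes reached 1 FPKM. Log2 changes were computed after adding 0.5 to each FPKM, so that those of low genes are understated, by a limma fit of the 11802 genes whose mean reached 1 FPKM. Of the 9 genes 8 passed that filter, and Plat did not. F10 and Serpinb2 had control means under 1 FPKM and passed through the groups in which they were high. Supplemented library 1 lay nearer to the hypoxia libraries than to its own group on the second principal component, at 3.72 against -17.8 and -21.1 for the other supplemented libraries and 5.65 to 15.4 for hypoxia.

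The microglial label was checked against 13 marker genes. Csf1r, Itgam, Cd68, Ptprc, Adgre1, Spi1, Tyrobp, Fcer1g and Laptm5 were well above 1 FPKM, with Cd68 at 681 FPKM in control. Mean Cx3cr1 was 0.195 FPKM in control but 2.47 in hypoxia and 2.73 after supplementation. Of 11 tested rows 6 were called higher in hypoxia and none lower in limma, with Csf1r up by 1.93 on the log2 scale. Over all tested genes 24.7% were called higher and 34.7% lower. Itgam counts with both of its rows. Cx3cr1 and the Itgam row with a control mean of 0.00555 FPKM passed the filter through the groups in which they were high. Tmem119 and P2ry12, markers of resting microglia, averaged at most 0.657 and 0.0643 FPKM in any group, and Aif1 at most 0.159. Of 7 hepatocyte markers, 4 were listed at 0 in all 9 libraries, Alb among them, and the list summed to at most 0.194 FPKM in any library. Of 10 endothelial markers, 3 (Tie1, Erg and Emcn) were listed at 0 throughout. Their sum was 2.29 to 3.08 FPKM in control, 3.32 to 3.60 in hypoxia and 3.88 to 4.05 with ethanolamine, and much of it was Egfl7, at 1.94, 1.34 and 2.08 FPKM in the means of control, hypoxia and ethanolamine. The other markers above 0.1 FPKM were higher at 1% oxygen, as Vwf was. Kdr averaged 0.350, 0.844 and 0.793 FPKM in the same order, Cdh5 averaged 0.236, 0.862 and 0.770, and Pecam1 averaged 0.103, 0.366 and 0.283. Of 6 megakaryocyte markers Pf4 alone passed the filter, and nearly all of the list's level (55.1 to 60.6 FPKM in control, 101 to 114 in hypoxia, 92.7 to 109 with ethanolamine) was this gene's, which macrophages also express. Astrocyte markers summed to at most 0.181 FPKM. Fibroblast markers summed to 0.530 to 0.571 FPKM in control, 0.954 to 1.14 in hypoxia and 0.967 to 1.06 with ethanolamine, and most of this was Pdgfra. The part of these other cell types in the results was not tested.

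The 250 bases before the annotated start are shown for the 5 members found in the RefSeq promoter table (build GRCm38.p6, plus strand for all 5). F7 and F10 are neighbours with unlike changes. F3, Plaur and Serpinb2 rose in hypoxia, as did F10, Plau, Thbd and Vwf. Plau, Plat, Thbd and Vwf are named only. The stretches are chr8:13037058-13037307 for F10, chr8:13025784-13026033 for F7, chr3:121723287-121723536 for F3, chr7:24462233-24462482 for Plaur and chr1:107511173-107511422 for Serpinb2. Capitals mark ACGTG, a core of hypoxia response elements, read here on the minus strand in F10, and TGANTCA, the AP-1 motif, in F3, Plaur and Serpinb2.
F10: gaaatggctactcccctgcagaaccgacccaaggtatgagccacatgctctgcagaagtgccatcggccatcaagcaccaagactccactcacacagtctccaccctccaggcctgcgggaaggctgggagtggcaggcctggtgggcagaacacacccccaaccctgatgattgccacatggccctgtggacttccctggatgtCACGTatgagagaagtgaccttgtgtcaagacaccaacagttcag
F7: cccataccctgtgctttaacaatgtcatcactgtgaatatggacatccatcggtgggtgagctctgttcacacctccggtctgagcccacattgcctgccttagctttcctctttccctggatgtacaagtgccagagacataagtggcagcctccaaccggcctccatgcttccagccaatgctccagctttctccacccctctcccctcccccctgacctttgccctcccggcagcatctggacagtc
F3: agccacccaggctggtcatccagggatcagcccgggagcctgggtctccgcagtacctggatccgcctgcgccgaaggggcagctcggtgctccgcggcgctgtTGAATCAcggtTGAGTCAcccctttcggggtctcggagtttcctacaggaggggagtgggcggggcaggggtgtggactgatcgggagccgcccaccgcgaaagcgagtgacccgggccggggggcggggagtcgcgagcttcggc
Plaur: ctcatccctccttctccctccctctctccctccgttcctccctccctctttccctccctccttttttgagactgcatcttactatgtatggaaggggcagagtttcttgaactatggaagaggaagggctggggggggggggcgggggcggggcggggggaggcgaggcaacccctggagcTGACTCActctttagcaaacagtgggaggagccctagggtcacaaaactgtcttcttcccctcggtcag
Serpinb2: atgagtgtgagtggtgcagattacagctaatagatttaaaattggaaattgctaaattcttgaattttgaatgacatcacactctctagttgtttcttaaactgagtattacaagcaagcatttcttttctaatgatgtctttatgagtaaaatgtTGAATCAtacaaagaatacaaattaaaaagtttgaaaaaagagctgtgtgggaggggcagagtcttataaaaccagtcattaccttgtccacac
F10 held 1 ACGTG, 41 to 45 bases before its start, and no GCGTG, the other core searched. Neither core occurred in F3, Plaur or Serpinb2, which also rose in hypoxia. Of 32851 promoter windows of this length, 16.6% held ACGTG and 38.6% held either core on either strand. F3 held 2 AP-1 motifs, 140 to 146 and 129 to 135 bases before its start, Plaur held 1 at 63 to 69 bases and Serpinb2 held 1 at 88 to 94 bases, or 175 to 181 bases before a second RefSeq start whose window is chr1:107511260-107511509, against 6.75% of all windows with at least 1. A GC box (GGGCGG) occurred 3 times each in F3 and Plaur, with 32.7% of all windows holding one. A loose NF-kappaB pattern, found in 45.8% of windows, occurred in F10, F3 and Plaur, with matches on opposite strands that overlapped in F3 and Plaur and 2 that overlapped a GC box in F3. F7 held none of the 5 motifs, which were searched on both strands. These are matches of letters and show no binding.

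Hypoxia was first set against control, to ask what low oxygen does to these genes. In hypoxia 7 of the 8 tested members rose (F10, Thbd, Serpinb2, Plaur, F3, Plau and Vwf) and F7 was slightly lower. Among all 11802 tested genes, 59.4% were called at a limma adjusted p under 0.05, 24.7% higher and 34.7% lower. The median log2 change of the 8 members was 1.78, against -0.09 for all tested genes, and single members ran from -0.18 to 4.27. The members were chosen with earlier results of these data known. F10 and Serpinb2 also passed the filter through the groups in which they were high. The counts and the median of the members are therefore a description and no test against all genes. The groups did not overlap for any of the 9 members, 8 higher and F7 lower. Over all tested genes 27.3% were higher and 37.7% lower without overlap. The controls are labelled 0 h and the hypoxia cells 24 h, so time and oxygen cannot be told apart. In these bulk libraries, fewer cells of a type and less RNA per cell cannot be told apart either.

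**Figure D1:**
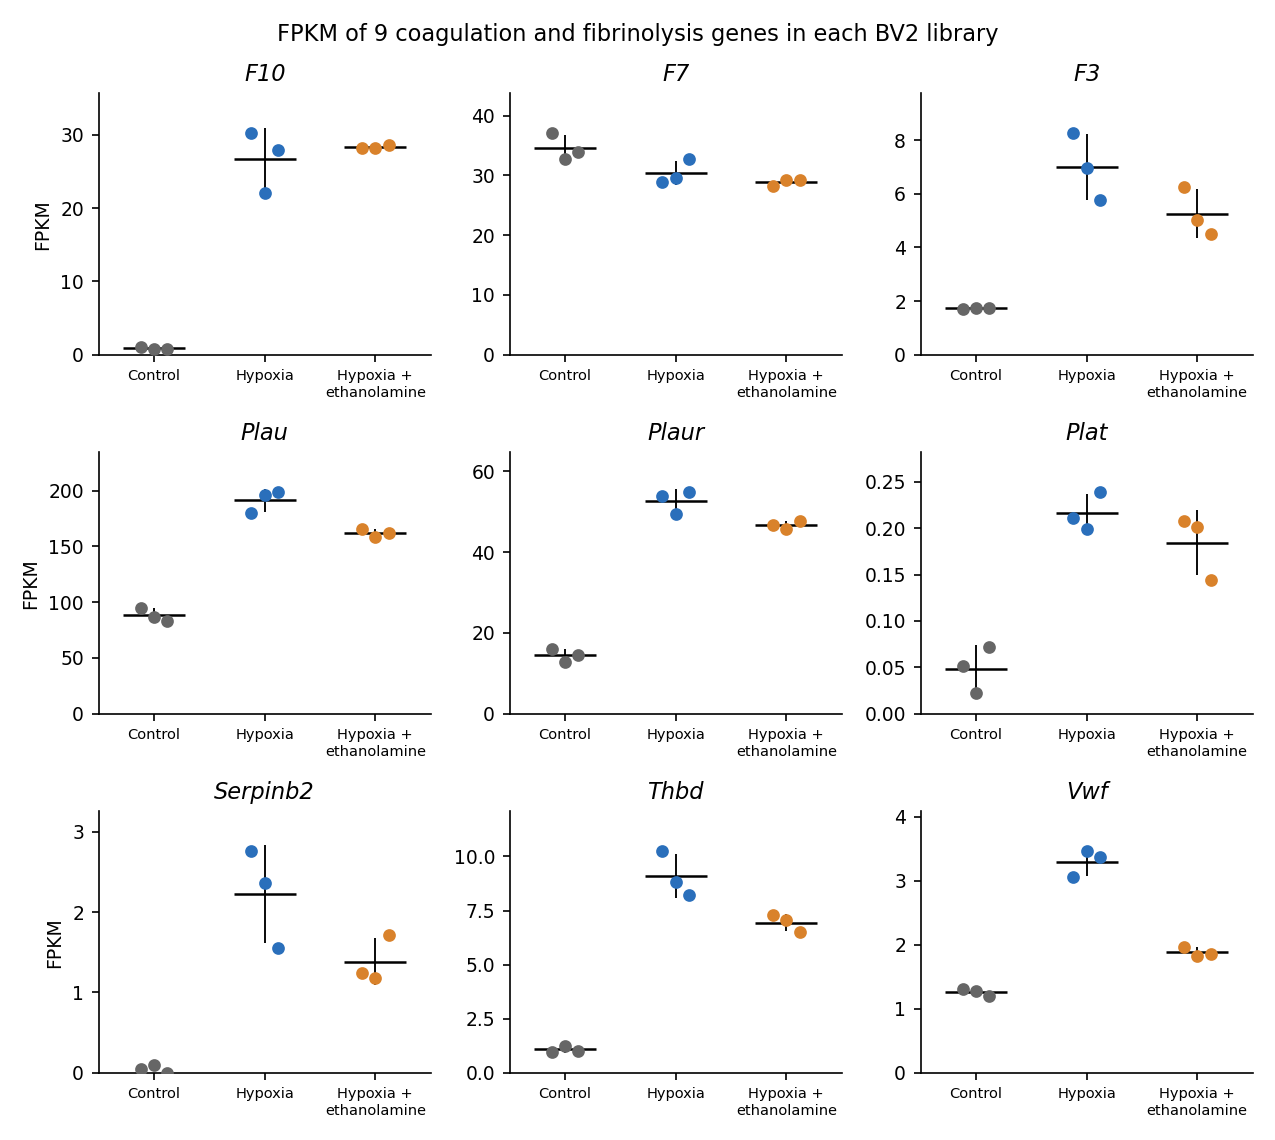
FPKM of each member in each library (points), with the group mean as a line and ± SD as a bar, n = 3 per group and a separate linear axis from 0 for each gene; no mean is drawn for Serpinb2 in control, where 1 library was listed at 0. F10, Thbd and Serpinb2 were near the axis in control and high in all 6 libraries at 1% oxygen, while F7 stayed between 28.3 and 37.0 FPKM throughout.

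F10 lies at chr8:13037308-13056676 (plus strand, GRCm38). It was 1.10, 0.762 and 0.851 FPKM in control, 30.2, 22.1 and 27.9 in hypoxia, and 28.2, 28.2 and 28.7 with ethanolamine. All 6 libraries at 1% oxygen were far above the controls, and the supplemented values lay inside the range of the hypoxia values. Mean F10 rose 29.5-fold, from 0.905 ± 0.176 to 26.7 ± 4.17 FPKM (SD, n = 3), a log2 change of 4.27 (SE 0.12, limma adjusted p = 2.94e-08). This was rank 9 from the highest change among the 11802 tested genes. At the estimated depth, control F10 rested on about 24.3 to 41.8 fragments per library and hypoxic F10 on 676 to 931.

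F7, which encodes the plasma protease that tissue factor binds, lies 1498 bases upstream of F10 on the same strand, at chr8:13026034-13035809. It was 37.0, 32.8 and 33.96 FPKM in control, 28.9, 29.5 and 32.8 in hypoxia, and 28.3, 29.3 and 29.3 with ethanolamine. The control values were higher than the others by a narrow margin, and control library 2 and hypoxia library 3 nearly met. The log2 change in hypoxia was -0.18 (SE 0.07, limma adjusted p = 0.0422), just inside the threshold. The call was lost without control library 1 or 3 (limma adjusted p = 0.128 and 0.0759), hypoxia library 1 or 2 (0.133 and 0.112), or supplemented library 1, 2 or 3 (0.0548, 0.0578 and 0.0588), and the change was -0.09 with limma adjusted p = 0.284 under median-of-ratios scaling. With ethanolamine F7 was lower than control by a log2 change of -0.25 (limma adjusted p = 0.0109), or -0.16 with limma adjusted p = 0.0626 under the same scaling.

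The neighbours F7 and F10 therefore had very different levels in control and similar levels at 1% oxygen. The ratio of F10 to F7 in FPKM was 0.0298, 0.0232 and 0.0251 in control, 1.04, 0.749 and 0.851 in hypoxia and 0.998, 0.962 and 0.978 with ethanolamine. The log2 ratio differed by 4.46 between hypoxia and control (exact permutation test, two-sided, p = 0.1, the smallest p that 3 against 3 libraries can give). Apart from these genes, 9 annotated genes start within 100 kb of F7 or F10, and 3 of them passed the filter. Pcid2, a gene of mRNA export on the opposite strand, rose from 15.2 ± 1.14 to 28.9 ± 2.07 FPKM (SD, n = 3; log2 change 0.91, limma adjusted p = 2e-05). Cul4a, a ubiquitin ligase scaffold gene, was 12.3 ± 1.72 and 13.3 ± 1.58 FPKM (limma adjusted p = 0.519), and the pseudogene Gm17022 was 1.26 ± 0.0110 and 1.85 ± 0.653 (limma adjusted p = 0.182). Proz, which encodes protein Z and starts 23.6 kb downstream of the F10 start, stayed at 0.159, 0.217 and 0.156 FPKM in the group means.

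**Figure D2:**
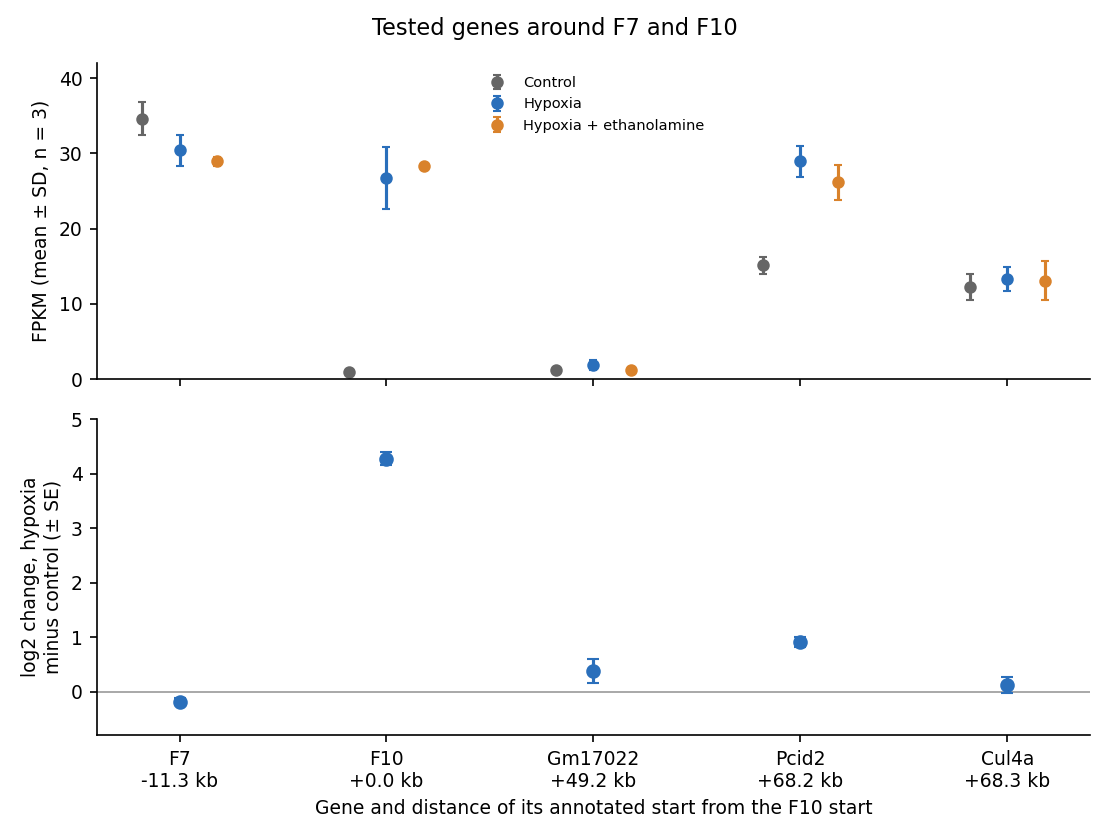
Top, mean FPKM ± SD (n = 3) of the 5 tested genes that start within 100 kb of F7 or F10, by group; bottom, their log2 change in hypoxia against control ± SE, in order of the distance of each start from the F10 start. F10 stands at 4.27, Pcid2 at 0.91, and F7, Gm17022 and Cul4a between -0.18 and 0.38.

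F3 (chr3:121723537-121735048), the gene of the receptor that starts clotting, was 1.71, 1.75 and 1.74 FPKM in control, 8.25, 6.97 and 5.77 in hypoxia, and 6.27, 5.02 and 4.48 with ethanolamine. The controls were nearly equal, and the hypoxia and supplemented values overlapped. F3 rose 4.03-fold in hypoxia, from 1.73 ± 0.0211 to 6.996 ± 1.24 FPKM (SD, n = 3), which is 1.73 on the log2 scale (SE 0.14, limma adjusted p = 7.31e-06).

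Thbd (chr2:148404466-148408188, minus strand), which encodes the thrombin receptor of the anticoagulant pathway, was 0.980, 1.25 and 1.01 FPKM in control, 10.2, 8.80 and 8.23 in hypoxia, and 7.29, 7.05 and 6.49 with ethanolamine. The 3 groups did not overlap. Thbd rose 8.40-fold in hypoxia, from 1.08 ± 0.149 to 9.09 ± 1.03 FPKM (SD, n = 3), which is 2.60 on the log2 scale (SE 0.10, limma adjusted p = 1.26e-07).

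Vwf (chr6:125546774-125686679), which endothelial cells and megakaryocytes are known to express, was 1.31, 1.27 and 1.21 FPKM in control, 3.05, 3.46 and 3.38 in hypoxia, and 1.97, 1.83 and 1.86 with ethanolamine. Again the 3 groups did not overlap, with the supplemented libraries between the others. Vwf rose 2.61-fold in hypoxia, from 1.26 ± 0.0552 to 3.30 ± 0.216 FPKM (SD, n = 3), which is 1.10 on the log2 scale (SE 0.09, limma adjusted p = 6.1e-06). The estimated number of fragments behind Vwf was 143 to 176 per control library and 332 to 374 per hypoxia library.

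Plau (chr14:20836660-20843385), the gene of urokinase, was the most abundant member in every group. It was 95.2, 86.3 and 82.9 FPKM in control, 179.7, 196 and 198 in hypoxia, and 166, 159 and 162 with ethanolamine, and the 3 groups did not overlap. Plau rose 2.17-fold in hypoxia, from 88.1 ± 6.34 to 191 ± 10.2 FPKM (SD, n = 3), which is 1.12 on the log2 scale (SE 0.07, limma adjusted p = 1.09e-06). Plaur (chr7:24462484-24475968), the gene of its receptor, was 16.03, 12.9 and 14.5 FPKM in control, 54.0, 49.4 and 54.8 in hypoxia, and 46.6, 45.7 and 47.8 with ethanolamine. It rose 3.64-fold in hypoxia, from 14.5 ± 1.57 to 52.7 ± 2.89 FPKM (SD, n = 3), which is 1.83 on the log2 scale (SE 0.08, limma adjusted p = 2.1e-07). The ratio of Plaur to Plau in FPKM did not overlap between control and either other group, at 0.164 ± 0.0135 in control, 0.276 ± 0.0242 in hypoxia and 0.288 ± 0.00661 with ethanolamine (SD, n = 3; exact permutation test, two-sided, p = 0.1 for each against control, the smallest p possible here).

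Serpinb2 (chr1:107511423-107535478), the gene of plasminogen activator inhibitor 2, was 0.0430, 0.0971 and 0 FPKM in control, 2.75, 2.37 and 1.56 in hypoxia, and 1.24, 1.19 and 1.72 with ethanolamine. The controls were close to 0, with about 1.30 and 2.47 estimated fragments in control libraries 1 and 2, and the hypoxia and supplemented values overlapped. The log2 change in hypoxia was 2.30 (SE 0.20, limma adjusted p = 9.82e-06), and it was 4.01 with a pseudocount of 0.1 and 1.61 with a pseudocount of 1. The annotated gene Serpinb10 overlaps Serpinb2 on the same strand, and its group means were at most 0.0624 FPKM. Serpinb2 RNA stayed far below Plau RNA, with a ratio of Serpinb2 to Plau in FPKM of at most 0.0153 in any library. The mean ratio was 0.000525 in control, 0.0117 in hypoxia and 0.00853 with ethanolamine. Control did not overlap with either other group, and its ratio rests on Serpinb2 values close to 0.

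Plat (chr8:22757727-22782844), the gene of tissue plasminogen activator, was the member with the lowest level at 1% oxygen. It was 0.0519, 0.0223 and 0.0719 FPKM in control, 0.211, 0.199 and 0.239 in hypoxia, and 0.208, 0.201 and 0.144 with ethanolamine. These values stand for an estimated 0.717 to 2.87 fragments per control library and 4.42 to 7.37 per library at 1% oxygen. All 6 libraries at 1% oxygen exceeded the 3 controls, with a difference of 0.35 in log2(FPKM + 0.5) (exact permutation test, two-sided, unadjusted p = 0.0238, the smallest p that 6 against 3 can give). With no filter, limma gave log2 changes of 0.39 in hypoxia and 0.32 with ethanolamine against control (adjusted p = 0.00181 and 0.00536). The ratio of Plau to Plat was 1835, 3874 and 1153 in control, 851, 985 and 831 in hypoxia, and 796, 790 and 1124 with ethanolamine, so urokinase RNA exceeded that of tissue plasminogen activator in each library.

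**Figure D3:**
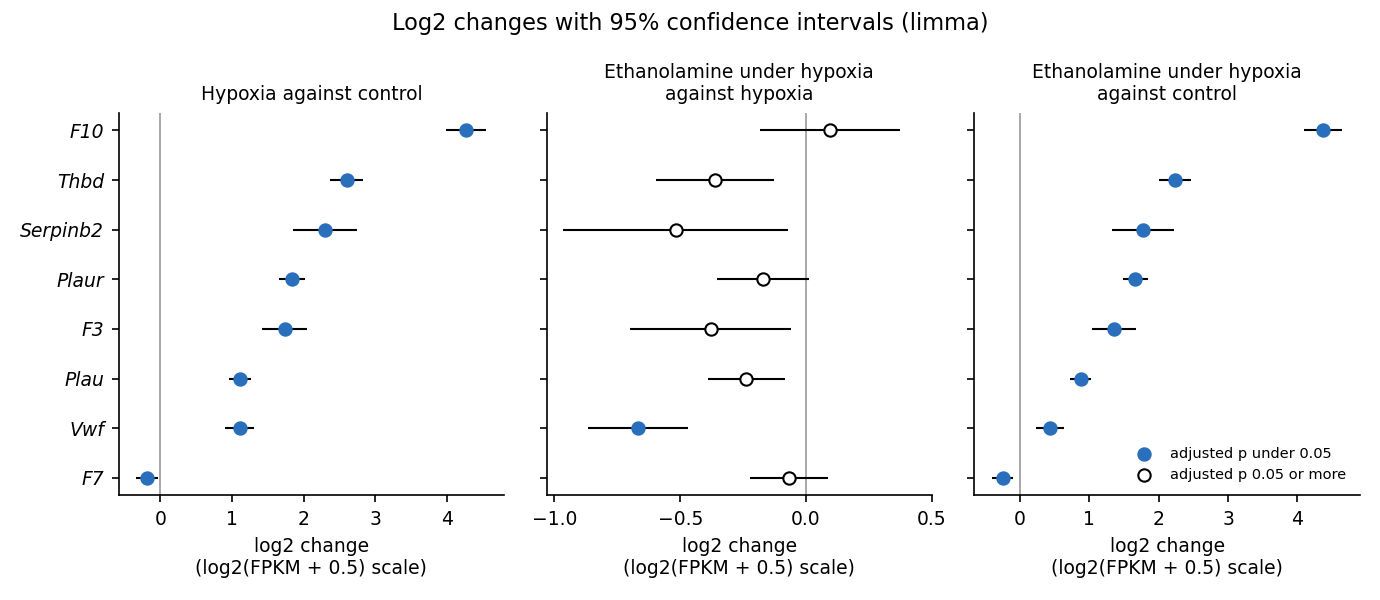
Log2 change of each of the 8 tested members in the 3 comparisons, with unadjusted 95% confidence intervals from limma; filled points passed an adjusted p of 0.05. In the middle panel, whose axis is narrower, Vwf at -0.67 is the filled point and F10 at 0.09 the only one above 0.

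Ethanolamine under hypoxia was compared with hypoxia alone, at equal labelled time and oxygen, to ask what the supplement changes. Vwf was the member that passed: it fell by 0.67 on the log2 scale (SE 0.09, 95% confidence interval -0.87 to -0.47, limma adjusted p = 0.0219), from 3.30 ± 0.216 to 1.88 ± 0.0736 FPKM (SD, n = 3). Over all tested genes 0.449% were called lower and 0.119% higher. The Vwf call was lost without hypoxia library 2 or 3 (limma adjusted p = 0.108 and 0.089), or supplemented library 1, 2 or 3 (0.0564, 0.0891 and 0.0945), with changes of -0.69 to -0.64. It was also lost when the controls were kept out of the fit (limma adjusted p = 0.0699). With ethanolamine Vwf was still higher than in control (log2 change 0.44, SE 0.09, limma adjusted p = 0.00227). Of the endothelial markers above 0.1 FPKM, mean Kdr, Cdh5 and Pecam1 were also lower with ethanolamine than in hypoxia, with overlapping libraries, and Egfl7 was higher without overlap. Their part in the Vwf result was not tested.

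The other 7 tested members did not pass, and 6 of them had a negative change. The change was -0.52 for Serpinb2 (95% confidence interval -0.96 to -0.07, limma adjusted p = 0.273), -0.38 for F3 (-0.70 to -0.06, limma adjusted p = 0.266) and -0.36 for Thbd (-0.59 to -0.13, limma adjusted p = 0.165). It was -0.24 for Plau (-0.39 to -0.09, limma adjusted p = 0.16), -0.17 for Plaur (-0.35 to 0.01, limma adjusted p = 0.373) and -0.07 for F7 (-0.22 to 0.09, limma adjusted p = 0.69). These intervals are not adjusted for the number of genes. F10 was at 0.09 (-0.18 to 0.37, limma adjusted p = 0.766). The median over the 8 members was -0.30, against 0.01 for all tested genes. The hypoxia libraries are shared with the comparison of hypoxia and control, and the members were chosen with earlier results of these data known. The negative median and the counts that follow are therefore not independent of the rise in hypoxia. An unadjusted p under 0.05 was reached by 5 of the 8 (F3, Plau, Serpinb2, Thbd and Vwf), as by 14.7% of all tested genes. The hypoxia and supplemented libraries did not overlap for Plau, Plaur, Thbd and Vwf, 4 of 9 members, all lower with ethanolamine, where 11.2% of all tested genes were lower without overlap and 10.5% higher. For the ratios of Plaur to Plau and of F10 to F7, the exact permutation p between these groups was 0.5 and 0.4.

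Against control, cells with ethanolamine at 1% oxygen had the same 7 members higher and F7 lower as in hypoxia alone, a comparison that shares the control libraries. Of all tested genes 58.5% were called, 24.1% higher and 34.4% lower. The groups did not overlap for any of the 9 members, where 26.8% of tested genes were higher and 37.7% lower without overlap. The log2 change was 4.37 for F10, 2.24 for Thbd, 1.78 for Serpinb2, 1.66 for Plaur, 1.35 for F3, 0.88 for Plau and 0.44 for Vwf, with limma adjusted p from 3.48e-08 for F10 to 0.00227 for Vwf. The order of the groups by mean level was therefore control, ethanolamine and hypoxia for Thbd, Plau, Plaur and Vwf, with no overlap between neighbours. For F3, Serpinb2 and Plat the order was the same but the hypoxia and supplemented values overlapped, and for F10 they overlapped with the supplemented mean slightly higher.

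By mean FPKM the members ranked Plau, F7, Plaur, F3, Vwf, Thbd, F10, Plat and Serpinb2 in control. In hypoxia they ranked Plau, Plaur, F7, F10, Thbd, F3, Vwf, Serpinb2 and Plat, and the order was the same with ethanolamine. In hypoxia the values of F7 and F10 overlapped across libraries. Of the genes for the initiating reaction of clotting, F7 was thus abundant in every group, while F3 and F10 were low in control and higher at 1% oxygen.

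Other genes of these pathways were listed by role, 75 symbols in all. In hypoxia 17 of 29 tested rows rose, 3 fell and 9 did not pass, against a background of 24.7% higher and 34.7% lower. The median log2 change of the 29 rows was 0.61, against -0.09 for all tested genes. F5, Serpini1 and 1 of 2 Itgam rows had control means under 1 FPKM and passed the filter through the groups in which they were high. The lists were chosen with earlier results of these data known, so these counts are a description and no test. Among further clotting factors, F9 (factor IX) rose from 2.33 ± 0.783 to 5.64 ± 0.250 FPKM and F5 (factor V) from 0.981 ± 0.178 to 1.78 ± 0.236 (SD, n = 3; log2 changes 1.15 and 0.62, limma adjusted p = 0.000225 and 0.00293). The other 12 of 14 listed factors were under the filter, with 4 listed at 0 throughout. Of 11 anticoagulant genes 2 were tested and both rose. Procr, the endothelial protein C receptor gene, went from 14.6 ± 2.54 to 36.1 ± 2.92 FPKM (log2 change 1.29, limma adjusted p = 1.61e-05), and Anxa5, which encodes a phosphatidylserine-binding annexin, from 140 ± 14.4 to 283 ± 19.9 (log2 change 1.02, limma adjusted p = 9.61e-06). Tfpi, the gene of the tissue factor pathway inhibitor, was listed at 0 in 8 of 9 libraries.

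Of 7 genes for plasminogen and its inhibitors 1 was tested: Serpini1, the gene of neuroserpin, an inhibitor of tissue plasminogen activator, rose from 0.482 ± 0.0820 to 4.46 ± 0.641 FPKM (SD, n = 3), by 2.33 on the log2 scale (limma adjusted p = 3.84e-07). Plg, the gene of plasminogen itself, and Serpine2 were listed at 0 in all 9 libraries. Of plasminogen receptors and urokinase receptor partners, 6 of 10 tested rows rose and 1 fell. Anxa2, which with S100a10 forms a surface receptor for plasminogen and tissue plasminogen activator, rose from 89.7 ± 11.1 to 485 ± 39.7 FPKM (log2 change 2.43, limma adjusted p = 1.4e-07), and S100a10 from 193 ± 18.4 to 293 ± 30.9 (log2 change 0.60, limma adjusted p = 0.000843). The integrin genes Itgb2 and Itgav rose by 1.37 and 1.19 on the log2 scale (limma adjusted p = 2.85e-06 and 0.000889). Hmgb1, a nuclear protein gene, fell by 1.75 on the log2 scale (limma adjusted p = 2.23e-08). Itgam has 2 rows in the table, and the second was at 0.00245 and 0 FPKM in hypoxia library 2 and supplemented library 3, where the first was highest, at 65.2 and 52.9, so its values are uncertain.

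In the vitamin K group, whose enzymes modify factors VII, IX and X, Furin, a propeptide-cleaving protease gene, rose from 4.70 ± 0.373 to 25.4 ± 0.820 FPKM (SD, n = 3; log2 change 2.32, limma adjusted p = 2.94e-08). The carboxylase gene Ggcx fell by 0.45 and Vkorc1l1, an epoxide reductase paralogue, by 1.30 on the log2 scale (limma adjusted p = 0.0212 and 0.0266), and Vkorc1 did not pass (limma adjusted p = 0.202). The thrombin receptor gene F2r was the tested member of 4 protease-activated receptors and was 3.59 ± 0.0539 and 4.18 ± 0.294 FPKM (limma adjusted p = 0.0735). F2rl2, another gene of this list, was under the filter and so was not tested. Its controls stood at 0.0534, 0 and 0.110 FPKM, and each hypoxia library was higher, at 1.12, 1.89 and 1.76. The supplemented libraries also exceeded every control for F2rl2, at 0.972, 1.25 and 1.14 FPKM. Of 8 partners of von Willebrand factor Selp alone was tested, and this P-selectin gene rose from 15.8 ± 0.540 to 23.7 ± 2.37 FPKM (log2 change 0.57, limma adjusted p = 0.000236). Of 14 other clade B serpins 8 were tested and 4 rose, with Serpinb9b at 1.87, Serpinb1c at 1.09, Serpinb6a at 0.61 and Serpinb6b at 0.51 on the log2 scale, and 4 did not pass. Between ethanolamine and hypoxia none of the 29 rows passed in limma, against 0.568% of all tested genes called in either direction. The median log2 change of these rows was -0.12, against 0.01 for all tested genes. That median is not independent of the rise in hypoxia, since the hypoxia libraries are shared. Furin came closest, at -0.37 (limma adjusted p = 0.0595).

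**Figure D4:**
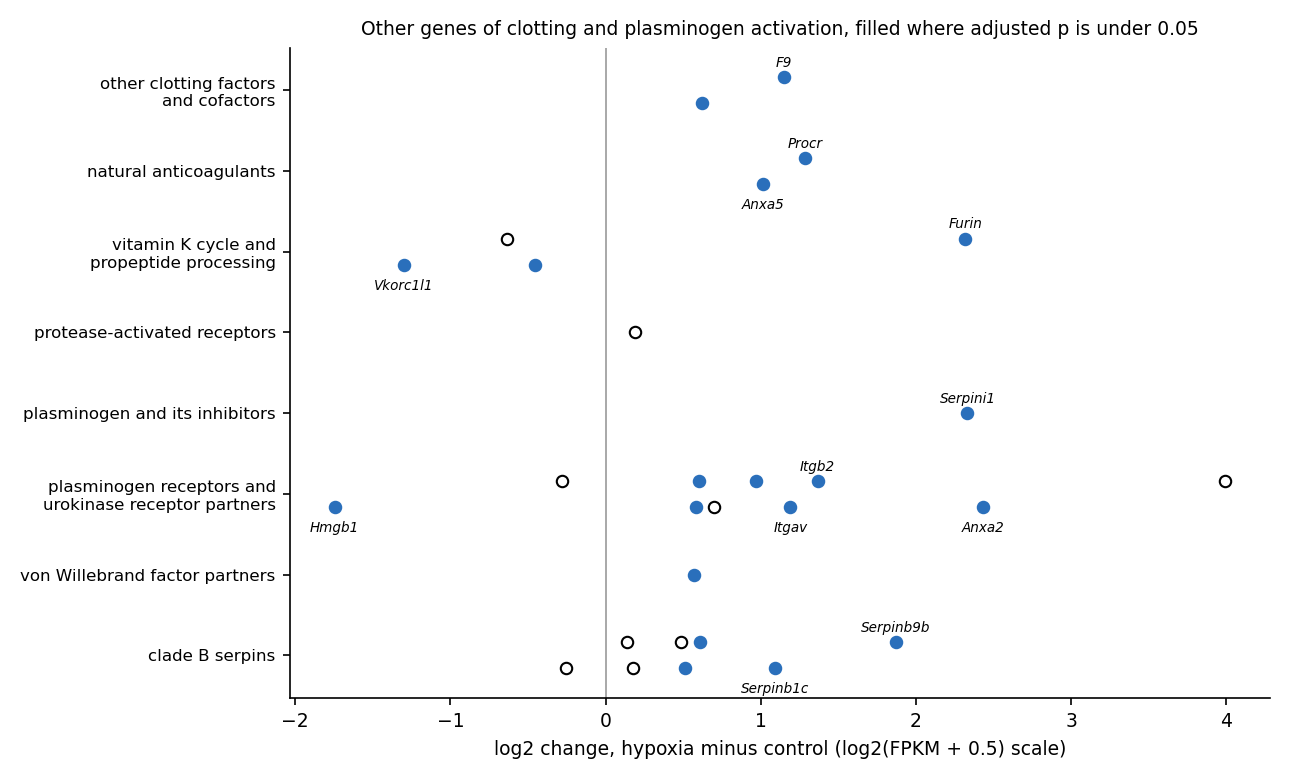
Log2 change in hypoxia against control of the tested genes of 8 lists, 1 point per table row, filled where the limma adjusted p was under 0.05 and named where the absolute change was also at least 1. Anxa2 at 2.43 was the highest filled point and Hmgb1 at -1.75 the lowest; the open point near 4 is an Itgam row.

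The genes whose pattern over the 9 libraries was most like each member's were found by Pearson correlation of log2(FPKM + 0.5) among tested genes averaging 5 FPKM or more. All points share the difference between control and 1% oxygen, so high values are common. For F10 they were Pgm2, a phosphoglucomutase gene (r = 1.00), Ppme1 and Selenbp1, the last going from 2.97 FPKM in control to 179 in hypoxia and 191 with ethanolamine. For Vwf they were Zbtb43 (r = 0.991), Nucb2 (0.982) and B4galt5 (0.982). Zbtb43 had group means of 5.35, 10.2 and 6.66 FPKM in control, hypoxia and ethanolamine. For Thbd they were Ccng2, a cyclin G gene, Frmd6 and Rapgef2 (r = 0.998 each), and for Plau they were Cd300lf, Acod1, the itaconate synthase gene, and Arap1 (r = 0.997 each). For Plaur they were Tec, a tyrosine kinase gene (r = 0.999), Mfsd9 and Grina (0.998 each). For F3 they were Icmt (0.998), Gna13 (0.994) and Cald1 (0.992), and for Serpinb2 Dusp4, a MAP kinase phosphatase gene (0.990), St3gal1 (0.987) and Sh3kbp1 (0.986). For F7, whose levels varied little, they were Ctbp2 (0.970), Sec61a1 (0.968) and Arhgap39 (0.954).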

How the data were processed

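RNA of 9 BV2 libraries was sequenced. RNA came from Qiagen columns and libraries from a SMARTER mRNA kit, per the labels' protocols. For each gene the authors deposited FPKM values. Reads were placed on GRCm38 (mm10), as the submitters' processing notes give it. The software for alignment and quantification is not given in the sources used. FPKM divides by library total and gene length, so any RNA class with a growing share lowers the rest. A second deposited table that bins the same FPKM was not used.

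Depth was estimated from 6848 genes with 1 transcript of 1500 to 6000 bases in GENCODE mouse M21. The tallest peak of FPKM times length in each library, 6.74 to 9.24 times above its surroundings, was taken as 1 fragment. The estimate assumes that length, and member fragments use the longest coding transcript. Positions come from the same annotation, which held 55154 of 55335 identifiers, and promoters from RefSeq.

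Groups came from sample titles. The 11802 of 27339 detected genes whose mean reached 1 FPKM entered limma-trend (limma 3.58.1, R 4.3.3) as log2(FPKM + 0.5), with all 9 libraries, group means, no covariates, two-sided, Benjamini-Hochberg over all tested genes at 0.05. Plat and 4 ratios between members were tested by exact permutation (SciPy 1.17.1), not adjusted, 16 tests. Code was tested on simulated data. Figures used matplotlib 3.10.9. Named genes were the members, up to 4 genes per pathway list with the highest absolute change, the 3 most alike genes (predicted genes left out) and the F7 and F10 neighbours. Tfpi, Plg, Serpine2, Vkorc1, F2rl2, Egfl7, Kdr, Cdh5, Pecam1, Pdgfra, S100a10 and Itgam were named after their values were seen. Members and lists were chosen with earlier results of these data known. Protein sequences were not used here, and some listed genes are not reported here. Alternatives changed the pseudocount, filter, scaling, block, trend or libraries.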

Additional observations from a re-analysis of the deposited data

How the results depend on the processing

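Across pseudocounts of 0.1 and 1, no filter, a filter of 5 FPKM, 3 rescalings, the replicate block, fits to 6 libraries, no trend and each library left out, the higher calls of F10, F3, Plau, Plaur, Serpinb2, Thbd and Vwf against control were kept wherever the gene was tested, for hypoxia and for ethanolamine. F7 lost its hypoxia call in 13 of 19 settings (adjusted p up to 0.284). Of 8 members called in hypoxia against control, 5 were called with a filter of 5 FPKM, which removes F3, Serpinb2 and Vwf, and 7 to 8 with a library left out. In ethanolamine against control 5 of 8 were called with that filter and 5 with a log2 change of at least 1. In ethanolamine against hypoxia the count of 1 became 0 with a filter of 5 FPKM, with a log2 change of at least 1, with 6 libraries, and with the replicate block (Vwf adjusted p = 0.0908), and was 0 to 1 with a library left out. The labels share replicate numbers 1 to 3, but same-numbered deviations correlated at -0.117 to 0.109, so the numbers were not taken as pairs. No other member's call against control changed under the block except that of F7 in hypoxia (adjusted p = 0.0677). F10 in ethanolamine against hypoxia ranged from -0.034 (without hypoxia library 2) to 0.19 with a library left out, and did not pass in any. The log2 ratio of Plau to Plat, ethanolamine against control, was 0.56 with a pseudocount of 0.5 and -0.061 with 0.1, and in hypoxia against control 0.73 and 0.017. Without a pseudocount the ratio was lower in both groups than in control (means 2288 in control, 889 in hypoxia and 903 with ethanolamine), since 0.5 exceeds every Plat value, so no direction is read from it. Over all genes, 7011, 67 and 6905 calls (hypoxia, ethanolamine against hypoxia, ethanolamine against control) became 1808 to 7902, 0 to 75 and 1603 to 7356 under other settings, and 6395 to 6976, 0 to 38 and 6215 to 6919 with a library left out. Plat, tested by exact permutation, was called by limma with no filter against control (0.39 in hypoxia, 0.32 with ethanolamine). Fewer than 3 estimated fragments per control library limit Plat and Serpinb2.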
